A study of Mus musculus with 12 samples.

Results

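The smooth muscle phenotype transcription factors examined here are 10 genes, Myocd, Srf, Mkl1, Mkl2, Klf2, Klf4, Klf5, Mef2c, Elk1 and Gata6, chosen by name among the genes of the array. They had 15 probes among 55681, all 15 were kept, and all 10 genes were among the 22758 genes tested. Gene expression was measured in the aorta of male, young adult mice of mixed strain (129S5/SvEvBrd, C57BL6 and SJL) with 12 one-colour microarrays, 3 in each of 4 groups. All mice were homozygous for the floxed Socs3 allele (Socs3fl/fl). WT mice had no Cre, and their littermates labelled smSocs3-KO carried the SM22-Cre transgene, in which the SM22 promoter drives Cre recombinase in smooth muscle. Aortas were taken before challenge or at day 3 of BAPN + AngII challenge, a model of aortic dissection in which BAPN (150 mg/kg/day), an inhibitor of collagen and elastin crosslinking, and angiotensin II (1000 ng/kg/min), a pressor hormone, were infused together. Socs3 is a feedback inhibitor of Stat3. The log2 signal of Socs3 was not lower under the smSocs3-KO label (0.24 to 1.46 on the 3 arrays before challenge, 2.28 to 4.13 at day 3) than in WT (0.30 to 0.75 and 0.64 to 2.30), so these arrays are called the arrays labelled smSocs3-KO.

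Smooth muscle cells (SMCs) of the aorta can hold a contractile phenotype or shift toward a synthetic, proliferative one. Srf binds the CArG box, a short AT-rich element in the promoters of contractile genes and of immediate early genes. Which of these genes Srf serves depends on its partner. Myocardin (Myocd) and the related factors Mkl1 and Mkl2, which respond to the actin cytoskeleton, favour the contractile genes, whereas Elk1, a ternary complex factor, competes with them for Srf after growth signals. Klf4 and Klf5 are associated with the synthetic phenotype, Klf2 is best known as a flow-responsive factor of the endothelium, and Mef2c and Gata6 are further regulators of muscle genes.

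To show the element through which Srf acts, the 250 bases before the transcription start were read from RefSeq (build GRCm38.p6) and searched for the CArG box on both strands. Only exact matches counted, 10 bases with CC, a run of A or T, and GG. Boxes with a changed base, or outside these 250 bases, were not searched, so a gene without a match may still have one. A box was present in 439 of 27025 genes with such a window (1.62%), and Srf was the 1 of 7 factors with a window that had one. In the list of contractile Srf targets described below, 2 of 15 genes with a window had one, Myl9, the regulatory myosin light chain, and Vcl, vinculin. The 3 windows follow, 5′ to 3′ with the boxes in capitals, which are matches of letters only, because no binding was measured.
Srf, chr17:46556163-46556412, minus strand: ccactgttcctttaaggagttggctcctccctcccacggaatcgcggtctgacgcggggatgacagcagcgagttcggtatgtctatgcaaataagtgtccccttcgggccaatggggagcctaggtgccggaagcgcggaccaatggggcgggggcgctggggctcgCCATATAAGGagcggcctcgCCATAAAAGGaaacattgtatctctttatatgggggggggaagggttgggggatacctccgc
Myl9, chr2:156775214-156775463, plus strand: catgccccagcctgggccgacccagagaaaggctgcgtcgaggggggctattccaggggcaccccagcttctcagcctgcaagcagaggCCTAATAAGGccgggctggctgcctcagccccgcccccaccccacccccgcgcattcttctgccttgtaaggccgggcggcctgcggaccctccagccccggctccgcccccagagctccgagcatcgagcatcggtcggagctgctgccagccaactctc
Vcl, chr14:20929148-20929397, plus strand: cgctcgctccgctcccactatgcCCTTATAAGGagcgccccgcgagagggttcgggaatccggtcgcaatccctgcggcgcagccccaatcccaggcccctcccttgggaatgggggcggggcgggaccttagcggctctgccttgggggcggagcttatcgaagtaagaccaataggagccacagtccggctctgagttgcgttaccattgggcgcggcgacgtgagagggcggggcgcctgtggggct
The Srf window held a pair of boxes, which started 82 and 62 bases before the start site. The box of Myl9 started 161 bases before it and that of Vcl 227 bases. Among the immediate early and cytoskeletal targets, 3 of 12 genes with a window had a box (Egr2, Actg1 and Filip1l).

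The probes that read the factors differed in kind, and the sequences of 3 of them are shown because they bear on what the values below mean. Their positions are given on mm9, the build in the array files. Gene annotation of that build was not used here, so exons are not named.
Mef2c, chr13:83772788-83775025, plus strand: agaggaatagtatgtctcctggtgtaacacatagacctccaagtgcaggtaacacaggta
Klf5, chr14:99702656-99712388, plus strand: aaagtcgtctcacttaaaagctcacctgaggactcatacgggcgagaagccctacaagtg
Elk1, first 30 of 60 bases at chrX:20510521-20510580, minus strand: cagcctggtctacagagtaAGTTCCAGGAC
The 60 bases of the Mef2c probe were spread over 2238 genomic bases and those of the Klf5 probe over 9733, so both cross a splice junction. In the Elk1 probe, capitals mark bases inside runs of 20 or more that other probes share. Such runs covered 41 of its 60 bases and were shared with 8 probes that the array does not list for Elk1, whose mean signals lay at percentiles from 98.97 to 100 of all probes. The Elk1 probe itself ranked 9th of all probes by mean signal, so its value cannot be assigned to Elk1. No other probe of the 10 factors shared a run of 20 bases with a probe of another gene. The second Elk1 probe, at chrX:20512461-20512520, was dim and well above background on 11 of 12 arrays, and both probes are given below.

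Values are log2 signals over the 75th percentile of their own array. Differences are log2 differences from 1 limma model over all 12 arrays, with Benjamini-Hochberg adjusted p over all genes and a threshold of 0.05. The share of spots well above background was 55.4% to 61.2%, no spot was saturated, and correlations between arrays of 1 group across genes ranged from 0.964 to 0.992. A pair of arrays stood apart from the others of their group. WT day 3 replicate 4 correlated at 0.970 and 0.964 with its group, and smSocs3-KO before replicate 1 at 0.964 and 0.965 with its own. On WT day 3 replicate 4 the log2 signal of Socs3 was 0.64, within the WT range before challenge, against 2.21 and 2.30 on the other WT arrays at day 3. The labels do not say whether replicates were separate animals, so p-values measure only the spread between these samples. Slide 1 held all 6 WT arrays and smSocs3-KO before replicate 1, and slide 2 held the other 5.

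None of the 10 factors passed the test in any comparison. In the WT challenge response, 4.68% of all genes passed it, in the smSocs3-KO label's response 2.45%, in the genotype difference before challenge 0.0264%, in that at day 3 1.11%, and in the genotype by challenge interaction 0. These counts over all genes moved strongly with the arrays used. The 1064 genes of the WT response became 3627 without WT day 3 replicate 4 and 0 to 3 without any 1 of the other 5 WT arrays, 0 when WT arrays alone were fitted and 0 with the replicate number as a block. The 557 genes under the smSocs3-KO label became 42 to 373 without any 1 of that label's arrays. For this response, the slide as a block gave 52, as did leaving out smSocs3-KO before replicate 1, because that is the label's only array on slide 1. The 253 genes of the genotype difference at day 3 became 45 to 615 without single arrays and 0 with the slide as a block. At an unadjusted p under 0.05, limma picked out 1 factor in the WT response (26.6% of all genes), 2 in the response under the smSocs3-KO label (23.8%), and 0 in each genotype difference (4.4% and 16.2%) and in the interaction (5.33%). At an unadjusted p under 0.01 with a fold change above 4 or below 0.25, the count was 0 in all of them. The factors' median log2 difference was -0.19 in the WT response, with 9 of 10 lower at day 3, against -0.02 over all genes. On the arrays labelled smSocs3-KO it was -0.10, with 6 of 10 lower, against -0.06.

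**Figure D1:**
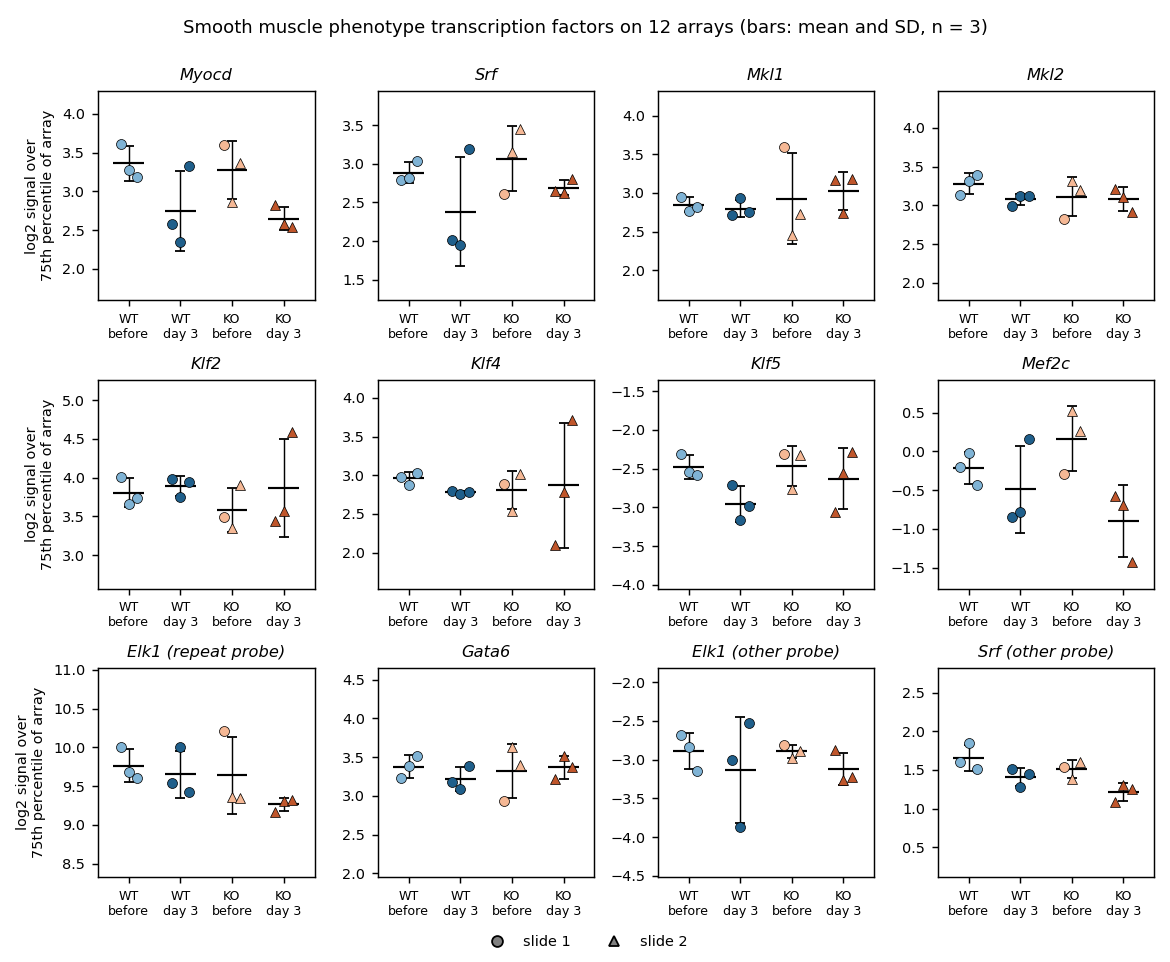
Log2 signal over the array's 75th percentile (vertical axis) of each factor on 12 arrays by group, with bars for the mean and SD of 3 arrays, circles for slide 1 and triangles for slide 2; the last panels show the second probes of Elk1 and Srf. The Myocd points at day 3 lie lower than before challenge except for 1 WT array at 3.33, and the Mef2c points under the KO label lie between -0.29 and 0.53 before challenge and between -1.43 and -0.57 at day 3.

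Myocd, the coactivator that gives Srf its preference for contractile genes, had the lowest p of the 10 factors in WT. Its probe lies at chr11:64991930-64991989 on the minus strand. Its log2 signal was 3.62, 3.28 and 3.19 on the WT arrays before challenge and 2.58, 2.34 and 3.33 at day 3. Of the day 3 arrays, 2 lay below all arrays before challenge, and replicate 4 lay among them. The log2 difference was -0.61 (SE 0.27, 95% interval -1.21 to -0.02, limma adjusted p = 0.176). With the smSocs3-KO label the log2 signal was 3.59, 2.87 and 3.37 before challenge and 2.82, 2.59 and 2.54 at day 3. These groups did not overlap, and the log2 difference was -0.63 (SE 0.27, 95% interval -1.22 to -0.03, limma adjusted p = 0.191). The genotype by challenge interaction was -0.02 (95% interval -0.86 to 0.83).

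The WT difference of Myocd moved with single arrays. Without WT day 3 replicate 4, it was -0.90 and passed the test (limma adjusted p = 0.029), as did 3627 genes (15.9%) in all. Without WT day 3 replicate 3 it was -0.41 (limma adjusted p = 0.379). The aorta is a mixed tissue, and fewer SMCs and less Myocd RNA per SMC cannot be told apart here. The 5 smooth muscle markers (Myh11, Acta2, Tagln, Cnn1 and Myocd itself) were all measured, none near the floor, and all 5 had lower means at day 3 under both labels without passing the test. Their log2 summed signal ranged from 11.26 to 11.43 in WT before challenge, from 10.94 to 11.22 in WT at day 3, from 11.08 to 11.70 under the smSocs3-KO label before challenge and from 10.65 to 10.87 at day 3. The part of SMC number in the Myocd values was not tested.

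Srf was read by a pair of probes. The position listed for the brighter one, chr17:46683788-46683795, is shorter than its 60 bases, and the reason was not examined. On this brighter probe, the log2 signal of Srf in WT was 2.79, 2.82 and 3.04 before challenge and 2.01, 1.95 and 3.19 at day 3. As for Myocd, replicates 1 and 3 at day 3 were low and replicate 4 was not, being the highest of the 6 arrays. The log2 difference was -0.50 (SE 0.32, 95% interval -1.20 to 0.20, limma adjusted p = 0.333), and without that array it was -0.90 (limma adjusted p = 0.026). Without replicate 1 at day 3 it was -0.31 (limma adjusted p = 0.684), and without replicate 3 it was -0.28 (limma adjusted p = 0.622). The other Srf probe, at chr17:46685306-46685365, did not follow this. It gave 1.61, 1.85 and 1.52 before challenge and 1.51, 1.28 and 1.45 at day 3, and its log2 difference without replicate 4 was -0.26 (95% interval -0.65 to 0.13, limma adjusted p = 0.349). Under the smSocs3-KO label the brighter probe gave 2.61, 3.15 and 3.44 before challenge and 2.65, 2.62 and 2.81 at day 3, which overlap, with a log2 difference of -0.37 (95% interval -1.07 to 0.32, limma adjusted p = 0.48). On the other probe the 3 arrays at day 3 (1.09, 1.31 and 1.25) lay below those before challenge (1.54, 1.38 and 1.61), with a log2 difference of -0.29 (limma adjusted p = 0.277).

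Mkl1 and Mkl2, the myocardin-related factors that carry actin signals to Srf, had overlapping groups in 3 of the 4 challenge comparisons on their brightest probes. On the Mkl1 probe at chr15:80842711-80842770 the log2 signal in WT was 2.95, 2.77 and 2.82 before challenge and 2.71, 2.93 and 2.75 at day 3. On the arrays labelled smSocs3-KO it was 3.59, 2.46 and 2.73, then 3.16, 2.75 and 3.18. The widest spread of Mkl1 was among the arrays labelled smSocs3-KO before challenge, where replicate 1 gave the highest value. The log2 differences with challenge were -0.05 in WT (95% interval -0.62 to 0.52) and 0.10 under the smSocs3-KO label (95% interval -0.47 to 0.67). For Mkl2, at chr16:13417529-13417588, the WT values were 3.13, 3.31 and 3.39 before challenge and 2.99, 3.12 and 3.12 at day 3. All 3 were lower at day 3, by a log2 difference of -0.20 (95% interval -0.57 to 0.16, limma adjusted p = 0.454). With the smSocs3-KO label the Mkl2 groups overlapped (2.83, 3.32 and 3.19, then 3.21, 3.11 and 2.92). A second, dim Mkl2 probe that crosses a splice junction had a log2 difference of -1.09 under that label, from -2.38, -3.82 and -3.55 to -4.09, -5.10 and -3.83. It also missed the threshold (limma adjusted p = 0.153). The value of -5.10 was not well above background, and that of -2.38 came from before replicate 1, the array that stood apart from its group. The third Mkl2 probe had log2 differences of -0.14 in WT and -0.47 under the smSocs3-KO label, and the second Mkl1 probe of -0.19 and 0.10, and none of these passed the test. The Mkl2 probes thus differed in size, and which of them follows Mkl2 was not tested.

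Mef2c, a MADS-box factor like Srf that also drives Myocd in muscle lineages, had the largest difference of the 10 factors when each gene is read by its brightest probe, in the model of 4 group means. Under the smSocs3-KO label its log2 signal was -0.29, 0.53 and 0.26 before challenge and -0.57, -0.69 and -1.43 at day 3. All arrays at day 3 lay below all arrays before it. The log2 difference was -1.06 (SE 0.33, 95% interval -1.78 to -0.34), or 0.479 of the level before challenge, and limma's p of 0.00796 became an adjusted p of 0.0974. Within slide 2 alone, with 2 arrays before challenge and 3 at day 3, the difference was -1.29. This is the same comparison as leaving out before replicate 1. Its direction was kept in all alternatives run, some of which leave the log2 difference unchanged by construction. The log2 difference ranged from -1.29 to -0.80 and the limma adjusted p from 0.0735 to 0.649. In WT the values were -0.20, -0.02 and -0.43 before challenge and -0.85, -0.79 and 0.16 at day 3, and replicate 4 was again the array that stood high. The WT difference was -0.28 (95% interval -0.997 to 0.45, limma adjusted p = 0.615), and the interaction was -0.79 (95% interval -1.81 to 0.23, limma adjusted p = 0.97), so the responses of the 2 genotypes were not shown to differ.

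**Figure D2:**
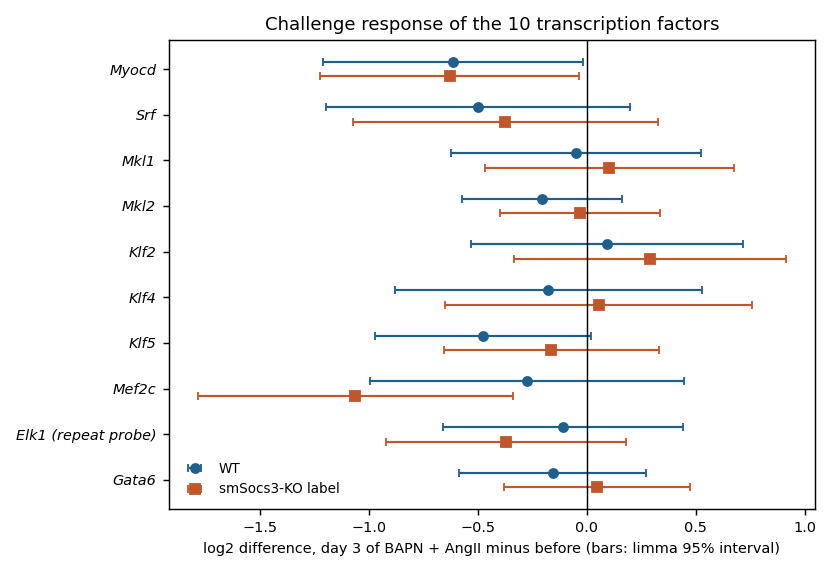
Log2 difference, day 3 minus before challenge (horizontal axis), of each factor in WT (circles) and under the smSocs3-KO label (squares), with limma's 95% intervals. The intervals of Myocd lie below 0 in both, that of Mef2c below 0 under the smSocs3-KO label, and the others span 0.

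Klf4, which represses contractile genes when SMCs change phenotype, had a lower mean at day 3 in WT and nearly the same mean under the smSocs3-KO label. In WT its log2 signal was 2.97, 2.88 and 3.03 before challenge and 2.80, 2.76 and 2.79 at day 3. All 3 arrays at day 3 were lower, within a narrow range. The log2 difference was -0.18 (95% interval -0.88 to 0.53, limma adjusted p = 0.747). On the arrays labelled smSocs3-KO it was 2.88, 2.54 and 3.02 before challenge and 2.11, 2.79 and 3.71 at day 3. The day 3 arrays held both the lowest and the highest Klf4 value of the 12, and the log2 difference was 0.05 (95% interval -0.65 to 0.76). Leaving out single arrays moved it from -0.37, without day 3 replicate 5, to 0.44. Klf4 was read at chr4:55540167-55540226 on the minus strand.

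Klf5, which activates growth genes of synthetic SMCs, was lower on every WT array at day 3. Its log2 signal was -2.31, -2.54 and -2.59 before challenge and -2.71, -3.17 and -2.98 at day 3, with a log2 difference of -0.48 (SE 0.22, 95% interval -0.97 to 0.02, limma adjusted p = 0.201). The Klf5 probe was dim, at percentile 56.9 of all probes by mean signal, though well above background on all 12 arrays. The WT difference was -0.16 with normexp background correction and quantile normalization, and -0.33 in the authors' table. With the smSocs3-KO label the groups overlapped, with -2.32, -2.76 and -2.32 before challenge and -3.05, -2.55 and -2.28 at day 3. Klf2, at chr8:74845137-74845196, gave 4.01, 3.66 and 3.74 in WT before challenge and 3.99, 3.75 and 3.95 at day 3. Its WT groups overlapped throughout. Under the smSocs3-KO label Klf2 was 3.50, 3.34 and 3.90, then 3.44, 3.57 and 4.59, and replicate 5 at day 3 was the highest array, as it was for Klf4. The Klf2 differences were 0.09 (95% interval -0.53 to 0.71) and 0.29 (95% interval -0.34 to 0.91). The 7 endothelial markers, which include Pecam1 and Cdh5, had a log2 summed signal of 6.13 to 6.17 and 6.34 to 6.65 in WT before and at day 3, and 5.94 to 6.47 and 6.31 to 6.53 under the smSocs3-KO label.

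Elk1, the ternary complex factor, gave 10.01, 9.68 and 9.60 in WT before challenge and 9.53, 9.9996 and 9.43 at day 3 on the probe with shared sequence. On the arrays labelled smSocs3-KO this probe gave 10.21, 9.36 and 9.35, then 9.17, 9.31 and 9.32, and the day 3 arrays lay below all others of that label and of WT at day 3. On the second probe the values were -2.69, -2.84 and -3.15, then -3.01, -3.87 and -2.53 in WT, and -2.81, -2.98 and -2.89, then -2.88, -3.26 and -3.22 under the smSocs3-KO label. The genotype difference at day 3 was -0.38 on the first probe (95% interval -0.93 to 0.17) and 0.02 on the second (95% interval -0.63 to 0.66), so the separation on the first probe was not seen on the one free of shared runs. Gata6, a zinc finger factor of SMCs, gave 3.23, 3.39 and 3.52, then 3.18, 3.09 and 3.39 in WT, and 2.94, 3.63 and 3.39, then 3.21, 3.52 and 3.37 under the smSocs3-KO label. Its groups overlapped in every comparison, and its log2 differences with challenge were -0.16 (95% interval -0.58 to 0.27) and 0.05 (95% interval -0.38 to 0.47).

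Groups of 3 arrays that do not overlap were common on these arrays. In the WT response they were found for 3 of the 10 factors (Mkl2, Klf4 and Klf5, all lower) and 35.3% of all genes, and under the smSocs3-KO label for 3 (Myocd, Mef2c and Elk1 on its shared-sequence probe, all lower) and 28.1%. In the genotype difference before challenge they were found for 0 factors and 11.1% of genes, and at day 3 for 1, Elk1 on the same probe, and 20.5%.

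The second question of the design was whether the genotypes differed. Before challenge, the genotype differences of the 10 factors (smSocs3-KO label minus WT) ran from -0.22 for Klf2 to 0.38 for Mef2c, and at day 3 from -0.40 for Mef2c to 0.33 for Klf5, with a limma adjusted p of 0.487 or more. Genotype and slide were largely shared, since 1 array of the smSocs3-KO label was on the slide of the WT arrays, so genotype and slide cannot be told apart beyond what that array shows. With the slide as a block, Mkl1 had a log2 difference of 0.74 before challenge (95% interval 0.24 to 1.25, limma adjusted p = 0.459) and of 1.23 at day 3 (95% interval 0.58 to 1.87, limma adjusted p = 0.222), against 0.08 and 0.23 without it. Mkl2 then had a log2 difference of -0.45 before challenge (95% interval -0.88 to -0.02, limma adjusted p = 0.511), against -0.17. These values rest on smSocs3-KO before replicate 1, the array of that label on slide 1. The 5 mesothelial markers were also higher under the smSocs3-KO label, with a log2 summed signal of 4.83 to 6.01 before challenge against 1.97 to 4.51 in WT, and 4.94 to 5.39 at day 3 against 1.44 to 3.79. At day 3 the log2 summed signal of the 5 fibroblast markers was also higher, 9.39 to 10.01 against 8.89 to 9.12, and that of the 5 smooth muscle markers was lower, as given above, without overlap. Their part in the genotype differences was not tested.

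**Figure D3:**
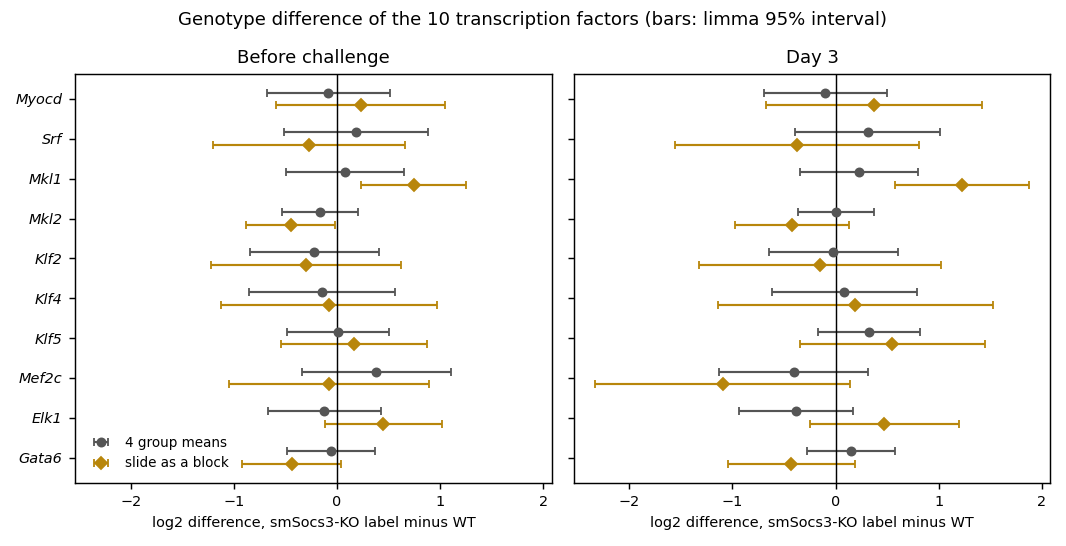
Log2 difference, smSocs3-KO label minus WT (horizontal axis), of each factor before challenge and at day 3, from the model of 4 group means (circles) and with the slide as a block (diamonds), with limma's 95% intervals. All intervals of the 4-group model span 0, and with the slide as a block those of Mkl1 lie above 0 at both times and that of Mkl2 below 0 before challenge.

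Genes that these factors are known to control were described from lists. The 18 contractile Srf targets were all tested, and none passed the test in either response. In WT, 15 of 18 were lower at day 3, with a median log2 difference of -0.26, and under the smSocs3-KO label 18 of 18 were lower, with a median of -0.61, against -0.02 and -0.06 over all genes. The smallest p was that of Myh11, the smooth muscle myosin heavy chain, with a log2 difference of -0.996 in WT (SE 0.33, limma adjusted p = 0.0917) and -1.18 under the smSocs3-KO label (SE 0.33, limma adjusted p = 0.0765). Next came Synpo2, an actin-binding protein, in WT (-1.23, limma adjusted p = 0.143) and Mylk, the kinase that starts SMC contraction, under the smSocs3-KO label (-1.01, limma adjusted p = 0.0863). Without WT day 3 replicate 4, the array without which Myocd and Srf passed, 5 of the 18 passed in WT, beside 15.9% of all genes. These were Synpo2 (-1.94), Lmod1 (-1.36), Myh11 (-1.36), Mylk (-1.01) and Csrp1 (-0.96), all lower at day 3.

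Of the immediate early and cytoskeletal Srf targets, 17 of 18 were tested (not Egr3). In WT, Tpm4, a tropomyosin of the cytoskeleton, rose by 1.52 on the log2 scale (SE 0.28, limma adjusted p = 0.0326), from a mean log2 signal of 5.24 ± 0.19 to 6.76 ± 0.57 (SD, n = 3), and the other 16 did not pass. Tpm4 passed in 7 of 15 alternatives and lost the call without any 1 of the WT arrays other than day 3 replicate 4 (highest adjusted p = 0.155 in limma). Of the 17 genes, 1 thus passed in WT with all arrays, beside 4.68% of all genes. Without day 3 replicate 4, 3 genes of the list rose and 2 fell, beside 15.9% of all genes past the test. Under the smSocs3-KO label 0 passed, with the smallest p for Tpm4 (1.01, limma adjusted p = 0.0754) and Junb, an AP-1 subunit (2.05, limma adjusted p = 0.0771). The list medians were 0.09 and 0.10.

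Other factors of the same families were also measured. Of 18 KLF, MEF2, ETS and GATA factors, Mef2b fell by 0.82 in WT (SE 0.20, limma adjusted p = 0.0479), and none passed under the smSocs3-KO label, where the lowest p were those of Klf10 (0.64, limma adjusted p = 0.128) and Klf13 (0.49, limma adjusted p = 0.184). The fall of Mef2b passed in 5 of 15 alternatives (log2 difference from -0.99 to -0.45, highest adjusted p = 0.205 in limma) and was lost without any 1 of the WT arrays other than day 3 replicate 4. The list medians were -0.23 and -0.12. With all arrays, 1 of the 18 passed in WT, beside 4.68% of all genes. Without WT day 3 replicate 4, 3 factors of this list fell in WT and 1 rose, beside 15.9% of all genes past the test. Of 24 cofactors and other regulators, 0 passed in either response. The smallest p were those of Fhl2, a LIM protein that binds Srf (1.16 in WT, limma adjusted p = 0.0649), and of Hdac5, a class II histone deacetylase that binds MEF2 factors (-0.66 in WT, limma adjusted p = 0.0993, and -0.85 under the smSocs3-KO label, limma adjusted p = 0.0677). With the smSocs3-KO label Nfatc1 came next (-0.65, limma adjusted p = 0.0758). Fhl2 (1.62) and Hdac5 (-0.88) passed in WT without WT day 3 replicate 4. Of the 8 endothelial targets of Klf2 and Klf4, 0 passed. Cav1 had the smallest p, at -0.60 in WT (limma adjusted p = 0.144) and -0.99 under the smSocs3-KO label (limma adjusted p = 0.0594), followed by Nostrin in WT (0.91, limma adjusted p = 0.178) and Ptgds under the smSocs3-KO label (-0.95, limma adjusted p = 0.164). Cav1 passed in WT without WT day 3 replicate 4 (-0.90, limma adjusted p = 0.0108), the setting in which 15.9% of all genes passed.

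The lists were written with earlier results of these data known, so a ranking of them is a description only. The list of the synthetic phenotype, which includes targets of Klf4 and Klf5, held the most genes that passed the test among the 6 lists. In WT, 5 of 16 genes rose, beside 4.68% of all genes past the test. There, 15 of 16 were higher at day 3, with a median log2 difference of 0.94. Spp1, osteopontin, rose by 5.62 (SE 1.17, limma adjusted p = 0.0349), Col8a1, a short-chain collagen, by 2.78 (SE 0.59, limma adjusted p = 0.0354), and S100a4, a calcium-binding protein, by 1.56 (SE 0.23, limma adjusted p = 0.0302). The other 2 that rose were Lgals3, galectin 3 (1.19, limma adjusted p = 0.033), and Fn1, fibronectin (1.05, limma adjusted p = 0.0334), named to complete the count. Under the smSocs3-KO label 2 of 16 rose, beside 2.45% of all genes past the test, and the median was 0.50. These were Ly6a, which codes for Sca1 (1.56, SE 0.28, limma adjusted p = 0.0269), and S100a4 (1.07, SE 0.23, limma adjusted p = 0.0428). Each of the genes named passed in 6 or 7 of 15 alternatives of its comparison. With the slide as a block, 7 rose in WT, beside 10.4% of all genes past the test, and 0 under the smSocs3-KO label, beside 0.228%. Without WT day 3 replicate 4, 9 rose in WT, beside 15.9% of all genes. In that setting Myh10, also on this list, was lower at day 3 and did not pass (-0.78, limma adjusted p = 0.150). Over the settings run, the count of genes that rose in WT ranged from 0 to 9 and that under the smSocs3-KO label from 0 to 3.

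Spp1 and Lgals3 are also made by macrophages. The 6 macrophage markers had higher means at day 3 in both genotypes, and Cd68 and Cd14 passed the test under the smSocs3-KO label. Their log2 summed signal ranged from 4.98 to 5.07 in WT before challenge, from 5.18 to 6.38 in WT at day 3, from 4.98 to 5.57 under the smSocs3-KO label before challenge and from 6.29 to 6.45 at day 3. In WT at day 3 this summed signal was 5.18 on replicate 4, against 6.38 and 5.88 on the others. None of the 6 macrophage markers was at the floor. The mean log2 signal of the 5 fibroblast markers was 4.83 to 5.10 under the smSocs3-KO label before challenge and 5.32 to 5.89 at day 3, against 4.67 to 4.94 and 4.495 to 4.79 in WT. The part of these cell types in the rise of the synthetic list was not tested. In the genotype differences and in the interaction, 0 genes of all 6 lists passed the test.

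**Figure D4:**
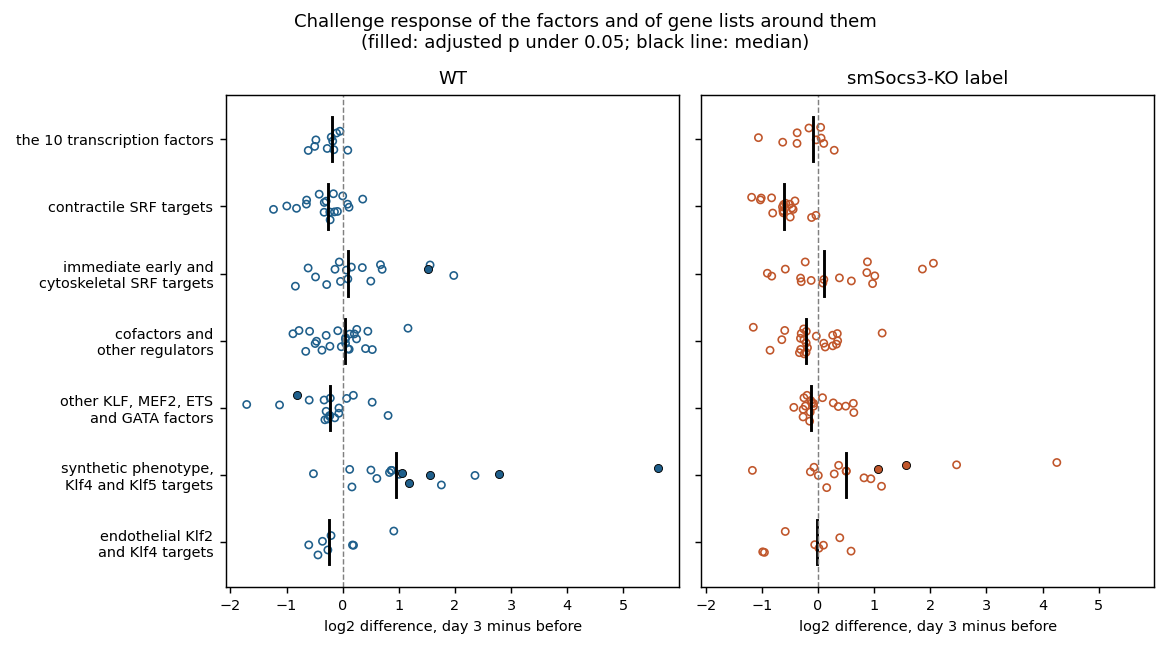
Log2 difference, day 3 minus before challenge (horizontal axis), of the 10 factors and of each gene in the 6 lists (rows), in WT and under the smSocs3-KO label; filled points passed the test and black lines are medians. In WT, 9 of 10 factors and 15 of 18 contractile targets lie below 0. Under the smSocs3-KO label 6 of 10 factors do, with Mef2c lowest at -1.06, and 18 of 18 contractile targets. The synthetic list has 5 filled points in WT and 2 under the smSocs3-KO label.

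Across the 12 arrays, the genes most like a factor were found by Pearson correlation of log2 signals, as a description over arrays that share 4 groups and 2 slides. For Myocd they were Wasl (r = 0.966), Celsr2 (0.966) and Sntb1 (0.957), for Klf4 Gm5914 (0.833), Znrf3 (0.821) and Klf6 (0.816), and for Klf2 Mafg (0.942), Scrib (0.924) and Samd4b (0.886). With the group means removed these values were 0.907 to 0.925 for Myocd, 0.826 to 0.876 for Klf4 and 0.914 to 0.965 for Klf2. Among the factors themselves, Klf2 and Klf4 were the most alike pair (r = 0.816).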

How the data were processed

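Aortic RNA of 12 mouse samples was hybridised to Agilent SurePrint G3 one-colour arrays, and groups and replicate numbers came from the labels. The authors deposited the scanner output, in which gProcessedSignal is an intensity on a linear scale per spot, background-subtracted and detrended by Feature Extraction (spot analysis version 10.7.1.1 in the file headers, Agilent Feature Extraction 9.5.1.1 in the submitters' processing notes). They also deposited a table of intensity values, which matched each array's scanner values with a Spearman correlation of at least 0.99997 and proved to be quantile normalized. The 10 genes and all lists were chosen with earlier results of these data known.

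Signals were expressed as log2 of the processed value less the 75th percentile of the array, without control and outlier spots. A probe was retained if every array of some group read it well above background (over 13 times the background SD), which left 32283 of 55681, and each gene was represented by its brightest retained probe. Group means (4) were modelled over 22758 genes in limma 3.58.1 (R 4.3.3), two-sided, with Benjamini-Hochberg adjustment and a threshold of 0.05, and the model was tested on simulated data. The study's own threshold for genes of its network (p under 0.01 with a fold change above 4 or below 0.25) was an alternative. From each list, up to 3 rises and 3 falls among genes that passed were named, or the 2 genes of smallest p where none passed. Alternatives covered background correction, normalization, filter, probe choice, variance moderation, arrays in the fit, slide, replicate number and each array left out. Leaving out the Elk1 probe with shared sequence, and fitting each probe alone, were chosen after seeing the data. Signal over background limits dim probes, and 3 arrays per group limit the precision. Promoter windows came from RefSeq (GRCm38.p6).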

Additional observations from a re-analysis of the deposited data

How the results depend on the processing

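Of 50 log2 differences (10 factors in 5 comparisons), 19 kept their sign in every alternative, and 92 of 800 alternative values had the opposite sign. Part of the 800 could not turn. Variance moderation, fitting only the groups compared and, for these factors, dropping the filter leave the log2 difference unchanged. So does the slide as a block in the WT response. The mean of kept probes changes nothing for factors with 1 probe, nor does leaving out the Elk1 probe for the other factors. In the smSocs3-KO response and the interaction, blocking on the slide and leaving out smSocs3-KO before replicate 1 are the same comparison, and both are counted. The challenge differences of Myocd, Srf and Mef2c in both genotypes and of Mkl2, Klf4, Klf5 and Gata6 in WT were among those that kept their sign. The number of factors past the test stayed at 0 except without WT day 3 replicate 4, where Myocd and Srf passed in WT, so that leaving out single arrays gave counts from 0 to 2 in the WT response and over all comparisons. The cause of the values below was not tested.

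Whether the replicate numbers pair the samples cannot be decided from these arrays, because deviations from a mean of 3 arrays are tied to each other. Same-numbered samples of different groups had correlations of their deviations from -0.403 to 0.463 (median 0.0726), with 4 of 11 over 0.1. Samples with different numbers had correlations from -0.435 to 0.478 (median -0.00569), with 8 of 43 over 0.1. With the replicate number as a block, 0 factors passed, and the sign turned for Myocd (genotype at day 3 0.28, interaction 0.55), Srf (genotype before challenge -0.11), Mkl1 (WT response 0.0221), Mkl2 (genotype at day 3 -0.0173), Klf2 (WT response -0.0793), Klf4 (smSocs3-KO response -0.11, genotype at day 3 -0.0841) and Klf5 (genotype before challenge -0.13). Blocking on the slide turned it for Myocd (genotype before challenge 0.23, at day 3 0.37, interaction 0.14), Srf (-0.27, -0.37 and -0.10), Elk1 (0.45, 0.47 and 0.024), Mkl2 (genotype at day 3 -0.42), Mef2c (genotype before challenge -0.0778) and Gata6 (smSocs3-KO response -0.14, genotype at day 3 -0.43). With normexp and quantile normalization it turned for Myocd (interaction 0.0088), Mkl1 (smSocs3-KO response -0.0076, genotype before challenge -0.0362), Mkl2 (genotype at day 3 -0.0366), Klf2 (WT response -0.14), Klf4 (smSocs3-KO response -0.0545), Klf5 (smSocs3-KO response 0.0329), Elk1 (WT response 0.0419, smSocs3-KO response 0.0583, interaction 0.0164) and Gata6 (smSocs3-KO response -0.12). In the authors' table it turned for Myocd (interaction 0.0466), Mkl1 (smSocs3-KO response -0.0154), Klf2 (WT response -0.13), Klf4 (smSocs3-KO response -0.0647), Klf5 (smSocs3-KO response 0.0019) and Gata6 (smSocs3-KO response -0.0869). With the mean of kept probes it turned for Mkl2 (genotype at day 3 -0.32, interaction -0.28). Without the Elk1 probe with shared sequence it turned for Elk1 (genotype before challenge 0.00027, at day 3 0.0168, interaction 0.0165).

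Leaving out each array in turn moved, across 0, in the WT response Mkl1 from -0.12 to 0.0035 and Elk1 from -0.28 to 0.0118. In the smSocs3-KO response it moved Mkl1 from -0.13 to 0.43, Mkl2 from -0.17 to 0.0697, Klf2 from -0.0741 to 0.50, Klf4 from -0.37 to 0.44, Klf5 from -0.34 to 0.0494 and Gata6 from -0.14 to 0.20. In the genotype difference before challenge it moved Myocd from -0.24 to 0.12, Srf from -0.0031 to 0.41, Mkl1 from -0.25 to 0.31, Klf5 from -0.0639 to 0.16, Elk1 from -0.41 to 0.0216 and Gata6 from -0.21 to 0.13. In the genotype difference at day 3 it moved Myocd from -0.31 to 0.19, Mkl2 from -0.0608 to 0.0875, Klf2 from -0.39 to 0.19 and Klf4 from -0.34 to 0.47. In the interaction it moved Myocd from -0.22 to 0.27, Srf from -0.10 to 0.53, Mkl1 from -0.0823 to 0.48, Klf2 from -0.17 to 0.41, Klf4 from -0.19 to 0.61 and Elk1 from -0.41 to 0.024.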
